A study of Mus musculus with 12 samples.

Results

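The genes described here are 40 cell cycle and DNA replication genes, out of 22377 genes with a value in RNA sequencing of whole mouse colon. They were listed by name from textbook roles, with earlier results of these data known. A gene's level is in FPKM, fragments per kilobase of transcript scaled to the mapped fragments of the library, summed over its listed transcripts, so that genes of different length can be set side by side. The genes fall into 3 roles: 10 replication genes, 6 genes of S phase entry and chromatin, and 24 genes of mitosis. The role of S phase entry and chromatin is called S phase entry below. All 40 had a value, and all 40 passed the filter on low values (at least 1 FPKM in at least 4 libraries) that 12578 genes passed.

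The 12 libraries came from 4 colons labelled FGF1, 4 labelled DSS and 4 labelled control. FGF1 is a fibroblast growth factor, and the study's design speaks of supplying the recombinant protein to mice with inflammatory bowel disease. DSS is the usual abbreviation of dextran sulfate sodium, a polymer given in drinking water to injure the colon lining. The labels give no genotype, strain, age, sex, dose or time for any group, and whether DSS was given to the FGF1 mice too is not stated. They do not say either that the 4 libraries of a group are separate animals, so the p-values measure only the spread between these libraries, which may in part be technical.

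Dividing cells copy their DNA once and then part the copies, and both steps are driven by genes that are switched on in turn. The Mcm2 to Mcm7 proteins form the ring that unwinds DNA at replication forks, Pcna is the sliding clamp that holds the polymerase, and Rrm1, Rrm2 and Tyms make the nucleotide building blocks. Cdk1 with its cyclins starts mitosis, the Aurora and Polo-like kinases build the spindle, Bub1 and Bub1b delay chromosome separation until every chromosome is attached, and Cdc20 and Ube2c mark cyclins for destruction at the end. In the colon, division takes place in the lower crypt, where stem cells and their transit-amplifying daughters renew the lining.

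The libraries differed in coverage and in tissue make-up. Between 11782 and 12245 genes reached 1 FPKM in the FGF1 libraries, between 11190 and 12101 in DSS and between 12287 and 12721 in control. Every control library lay above every FGF1 and DSS library, and DSS 4 had the fewest such genes. The sequencing depth is unknown because the files give no counts. All 12 epithelial markers, all 12 crypt base stem cell markers, all 10 smooth muscle markers and all 10 fibroblast markers were listed in every group. Epcam, an epithelial adhesion gene, lay between 835 and 919 FPKM in FGF1, between 741 and 965 in DSS and between 661 and 788 in control. The summed level of the stem cell markers ranged from 231 to 271 FPKM in FGF1, from 166 to 212 in DSS and from 191 to 219 in control. The largest part of that sum was Prom1, at 138 to 198 FPKM in FGF1, 91.3 to 132 in DSS and 93.2 to 145 in control. The mean log2(FPKM + 1) of the stem cell markers, which weighs them alike, was 3.00 to 3.18 in FGF1. It was 2.78 to 2.965 in DSS and 2.95 to 3.18 in control, so FGF1 and control overlapped. Smooth muscle markers summed to between 987 and 6447 FPKM in FGF1, between 471 and 1648 in DSS and between 2167 and 6940 in control, and fibroblast markers to between 122 and 316, between 22.1 and 121, and between 322 and 485 FPKM in the same 3 groups.

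Levels of the cell cycle genes spread widely. Averaged over the 12 libraries, the highest was Pcna at 73.0 FPKM and the lowest was Cdc6 at 1.54 FPKM. Ube2c, a ubiquitin-conjugating enzyme of the anaphase-promoting complex, was the highest mitosis gene at 41.3 FPKM. Uhrf1, which takes part in copying DNA methylation onto new strands, was the highest S phase entry gene at 9.05 FPKM.

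**Figure D1:**
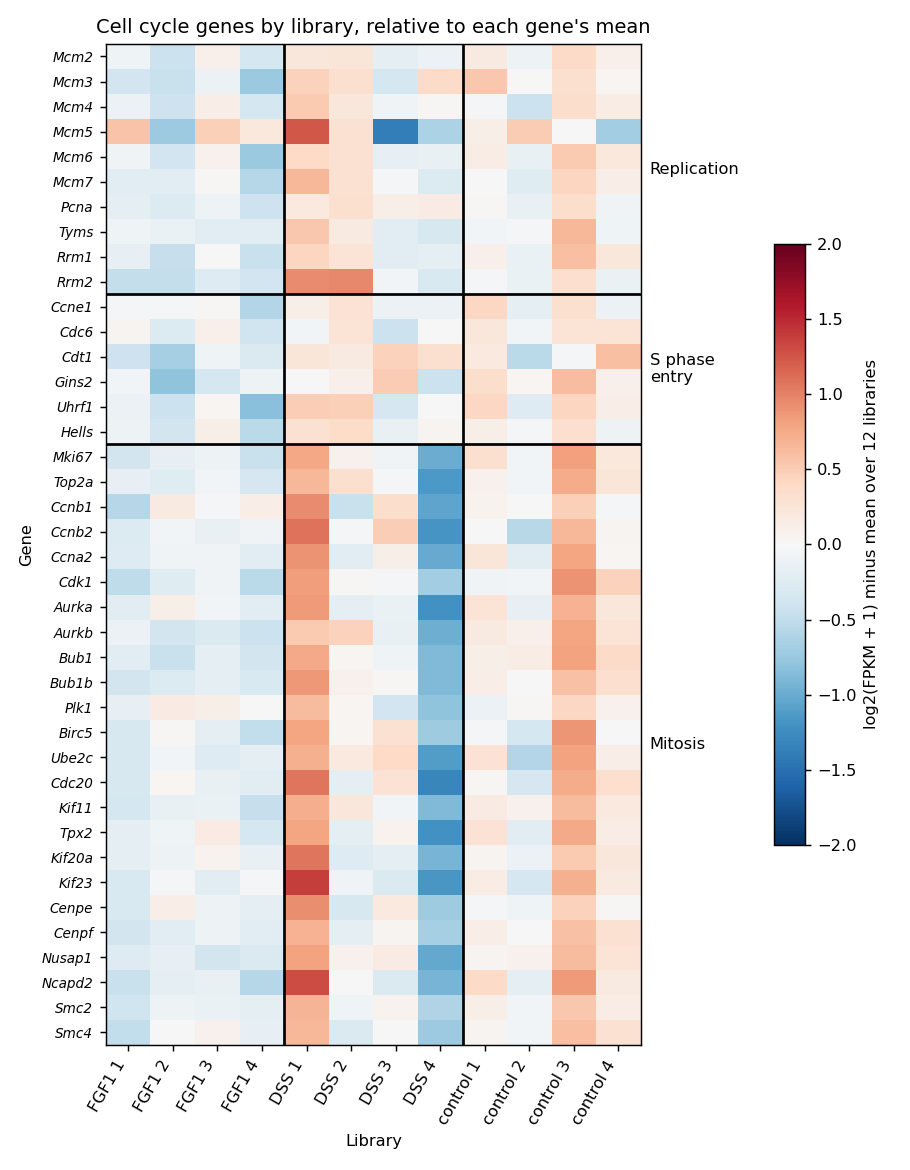
Each row is 1 of the 40 genes and each column 1 library, with the FGF1 libraries left, DSS in the middle and control right; colour gives log2(FPKM + 1) minus the gene's mean over the 12 libraries. In each of the 24 mitosis rows DSS 4 has the lowest value and DSS 1 or control 3 the highest.

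Of the replication genes, Pcna had 63.5, 59.5, 67.4 and 53.7 FPKM in FGF1, 82.7, 90.7, 78.2 and 80.9 in DSS, and 73.0, 65.2, 92.5 and 68.7 in control. All 4 FGF1 libraries lay below all 4 DSS libraries, and control overlapped both. Mcm7, a subunit of the helicase ring (chromosome 5, 138164583 to 138172422, GRCm38), had 14.5, 14.4, 17.2 and 11.0 FPKM in FGF1, 27.2, 21.2, 16.5 and 13.8 in DSS, and 16.9, 14.1, 23.0 and 18.7 in control. Another ring subunit, Mcm6, had 15.0, 11.9, 16.8 and 8.99 FPKM in FGF1, 21.1, 19.6, 14 and 14.1 in DSS, and 17.6, 14.1, 23.0 and 18.4 in control. For both Mcm genes the lowest library of the 12 was FGF1 4 and the 3 groups overlapped.

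Rrm2, the regulated subunit of ribonucleotide reductase (chromosome 12, 24708241 to 24714146), split the DSS group. It had 7.44, 7.41, 8.85 and 7.97 FPKM in FGF1, 21.4, 21.8, 10.2 and 8.48 in DSS, and 10.5, 9.67, 13.9 and 9.75 in control. DSS 1 and DSS 2 stood above every other library, DSS 3 lay within the control range, DSS 4 below it, and all 4 FGF1 libraries were below all 4 control libraries. Mcm5 was the least steady member: with 2 of its 5 annotated transcripts listed, it ranged from 1.46 to 5.02 FPKM in FGF1, from 0.56 to 8.65 in DSS and from 1.52 to 4.76 in control. The remaining replication genes, Mcm2, Mcm3, Mcm4, Tyms and Rrm1, had group means between 5.45 and 15.2 FPKM.

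Among the S phase entry genes, Uhrf1 had 7.89, 6.18, 8.98 and 4.42 FPKM in FGF1, 12.7, 12.5, 6.71 and 8.65 in DSS, and 11.9, 7.14, 12.1 and 9.58 in control. Gins2, a subunit of the complex that activates the Mcm helicase (chromosome 8, 120578633 to 120589304), had 6.81, 3.64, 5.33 and 6.52 FPKM in FGF1, 7.16, 7.69, 10.5 and 4.99 in DSS, and 9.34, 7.34, 11.4 and 7.63 in control. FGF1 and control did not overlap for Gins2, and all groups overlapped for Uhrf1. Cdt1, which loads the Mcm ring onto origins (chromosome 8, 122568015 to 122573554), had 3.25, 2.58, 4.33 and 3.67 FPKM in FGF1, 5.72, 5.47, 6.84 and 6.14 in DSS, and 5.54, 2.92, 4.57 and 7.66 in control. Here FGF1 lay below DSS in every library. Cyclin E1 (Ccne1), the loading factor Cdc6 and the chromatin remodeller Hells had group means between 1.31 and 3.96 FPKM.

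The mitosis genes shared 1 shape. Ube2c had 30.9, 37.4, 32.1 and 33.6 FPKM in FGF1, 64.1, 44.3, 51.5 and 17.3 in DSS, and 47.5, 25.6, 68.6 and 42.7 in control. Birc5 (survivin, of the chromosomal passenger complex) had 19.5, 24.9, 21.6 and 17.1 FPKM in FGF1, 43.1, 25.2, 30.4 and 14.5 in DSS, and 23.9, 19.0, 45.9 and 24.6 in control. In both genes the FGF1 libraries sat close together, control 3 and DSS 1 were the 2 highest and DSS 4 was the lowest. Plk1, the Polo-like kinase, had 21.9, 27.5, 26.6 and 24.4 FPKM in FGF1, 38.5, 25.2, 18.6 and 13.6 in DSS, and 22.5, 25.0, 33.1 and 26.1 in control. Its groups overlapped, with the same library at the bottom.

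Cdk1 (chromosome 10, 69335146 to 69352938) had 3.55, 4.42, 5.12 and 3.42 FPKM in FGF1, 10.5, 5.57, 5.29 and 2.99 in DSS, and 5.13, 5.17, 11.0 and 7.87 in control. The spindle checkpoint kinase Bub1 (chromosome 2, 127801122 to 127831865) had 2.32, 1.85, 2.43 and 2.01 FPKM in FGF1, 5.57, 2.99, 2.65 and 1.11 in DSS, and 3.21, 3.31, 5.79 and 4.06 in control. For both genes every FGF1 library lay below every control library, though for Cdk1 the nearest pair, FGF1 3 and control 1, was at 5.124 and 5.126 FPKM. Aurka, the Aurora kinase of the spindle poles, had 6.74, 8.80, 7.70 and 6.72 FPKM in FGF1, 15.3, 6.99, 7.20 and 2.90 in DSS, and 9.94, 7.001, 13.6 and 9.56 in control, with overlap throughout. Mki67, the gene of the Ki-67 proliferation antigen, was picked out after its values were seen, for its wide use as a stain. It had 8.02, 9.44, 9.94 and 7.57 FPKM in FGF1, 18.9, 11.4, 10.1 and 4.86 in DSS, and 13.6, 10.3, 19.6 and 12.5 in control. Again FGF1 and control were apart. The other mitosis genes had group means from 1.29 FPKM (Cenpf in FGF1) to 28.5 FPKM (Top2a, the topoisomerase that untangles sister DNA, in control).

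Scores summarise each library as the mean log2(FPKM + 1) over all genes of a role. The mitosis score was 2.88, 3.10, 3.09 and 2.93 in FGF1, 4.05, 3.16, 3.23 and 2.24 in DSS, and 3.31, 3.07, 3.88 and 3.39 in control. DSS held both the highest and the lowest library of the 12. For replication the score was 3.53, 3.25, 3.66 and 3.24 in FGF1, 4.20, 3.99, 3.39 and 3.50 in DSS, and 3.74, 3.56, 4.04 and 3.63 in control. The S phase entry score was 2.27, 1.96, 2.36 and 1.93 in FGF1, 2.57, 2.67, 2.38 and 2.36 in DSS, and 2.68, 2.21, 2.71 and 2.53 in control. FGF1 had the lowest group mean in all 3 roles: 3.00 ± 0.11, against 3.17 ± 0.74 in DSS and 3.41 ± 0.34 in control for mitosis (SD, n = 4 each), 3.42 ± 0.21, against 3.77 ± 0.39 and 3.74 ± 0.21 for replication, and 2.13 ± 0.22, against 2.50 ± 0.15 and 2.54 ± 0.23 for S phase entry.

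**Figure D2:**
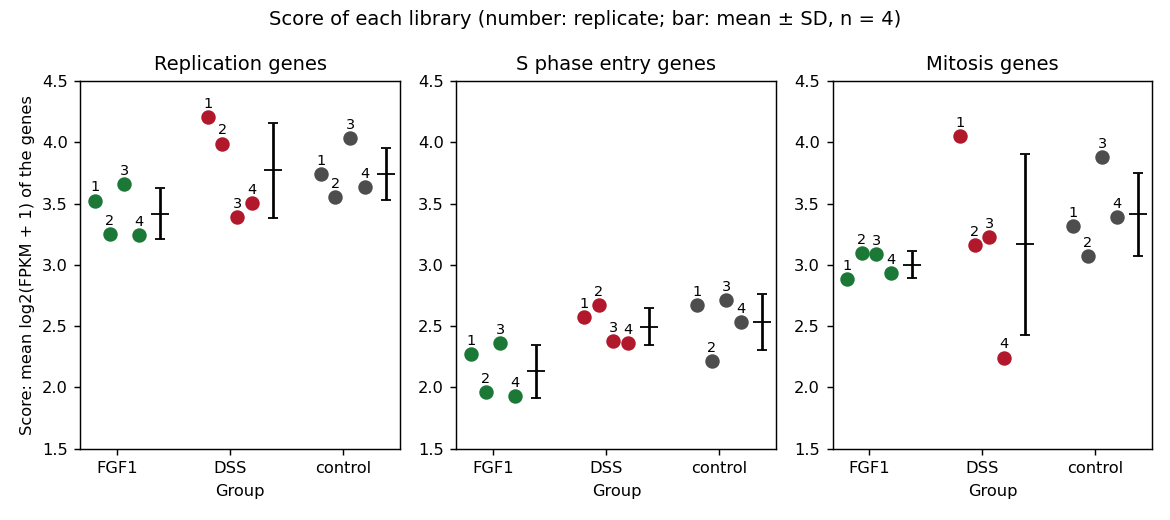
Points are libraries, numbered by replicate, with the group mean ± SD (n = 4) beside them, for the replication, S phase entry and mitosis scores (mean log2(FPKM + 1); the 3 panels share 1 scale). The DSS mitosis scores span 2.24 to 4.05, while the FGF1 scores lie between 2.88 and 3.10.

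DSS 4 had the lowest FPKM of all 12 libraries in 24 of 24 mitosis genes, but in 1 of 10 replication genes and 0 of 6 S phase entry genes. DSS 1 had the highest in 17 of the 24 mitosis genes and control 3 in the other 7. The share of all genes in which DSS 4 was lowest was not counted. On coding transcripts alone DSS 4 stayed lowest in the mitosis genes except Smc4. Coding Smc4 had 6.158 FPKM in DSS 4, 2.986 in DSS 2 and 2.375 in control 4. Against DSS 4, DSS 1 had a median ratio of 4.47 over the mitosis genes, between 2.83 for Plk1 and 7.64 for Kif23, a kinesin of the dividing cell's midzone. The same ratio had a median of 1.54 over the replication genes, from 1.02 for Pcna to 5.29 for Mcm5, and of 1.24 over the S phase entry genes. DSS 2 departed in another way, with a replication score of 3.99, the third highest of the 12, and a mitosis score of 3.16 in the middle of the range. Mitosis minus replication was -0.16, -0.83, -0.17 and -1.26 in DSS 1 to DSS 4, between -0.64 and -0.15 in FGF1 and between -0.48 and -0.16 in control.

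Spread within a group depended on the role. The median within-group SD of log2(FPKM + 1) over the mitosis genes was 0.14 in FGF1, 0.75 in DSS and 0.33 in control, beside 0.18, 0.26 and 0.20 over all genes tested. Over the replication genes it was 0.25 in FGF1, 0.35 in DSS and 0.28 in control. Within DSS, some other marker lists moved with the libraries as well, scored as mean log2(FPKM + 1). Smooth muscle markers scored 6.11, 5.98, 5.34 and 4.42 in DSS 1 to DSS 4, fibroblast markers 3.21, 2.66, 1.80 and 1.40, and neutrophil markers 2.45, 0.39, 1.64 and 0.35. Other lists took another course. Stem cell markers scored 2.965, 2.776, 2.855 and 2.935 in DSS 1 to DSS 4, and goblet markers 7.957, 8.107, 8.083 and 8.247. Colonocyte markers scored 7.785, 8.468, 7.737 and 8.271, and T cell markers 0.38, 0.54, 0.83 and 0.86. The neutrophil list summed to 137, 4.32, 48.0 and 2.57 FPKM in DSS 1 to DSS 4, to between 4.23 and 15.3 in FGF1 and to between 0.26 and 4.31 in control, with Cxcr2, Ngp, Mpo and Retnlg listed at 0 in all 4 control libraries and Ngp in all 4 FGF1 libraries. The 8 germinal centre B cell markers, of a cell type that also divides fast, summed to at most 7.03 FPKM in FGF1, 6.66 in DSS and 10.5 in control. The part of these cell types in the mitosis values was not tested. In whole tissue, fewer dividing cells and less RNA per cell cannot be told apart.

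**Figure D3:**
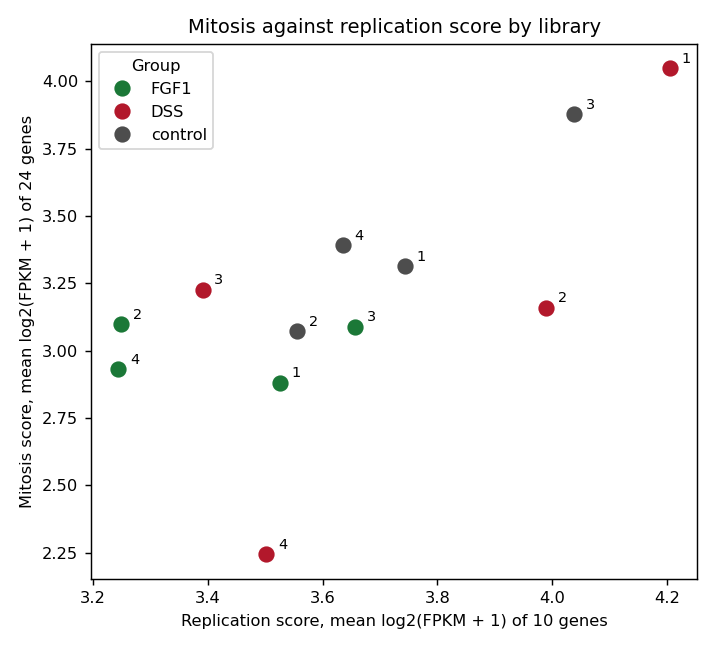
Each point is a library, numbered by replicate and coloured by group, with its replication score on the x axis and its mitosis score on the y axis (both mean log2(FPKM + 1)). DSS 1 and control 3 are highest on both axes, and DSS 4 is lowest in mitosis at 2.24 with a replication score of 3.50.

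DSS 4 was lowest in every mitosis gene but in only 1 replication gene, and promoters of both roles are shown side by side. Whether promoter motifs bear on the DSS 4 values was not tested. RefSeq (GRCm38.p6) gave a window from 250 bases before to 50 bases after the start for 33 of the 40 genes; those without one were Mcm4, Gins2, Ccna2, Aurkb, Tpx2, Kif20a and Smc4. Each window was searched on both strands for 3 motifs: the cell cycle homology region (CHR, TTTGAA), an element of genes expressed in mitosis; the CCAAT box, bound by NF-Y; and an E2F site (TTTGGCGC or TTTCGCGC), typical of genes of DNA synthesis. The bases before the start are printed 5′ to 3′ on the gene's strand for 3 mitosis genes (Cdk1 at chr10:69352913-69353162, minus strand; Mki67 at chr7:135716380-135716629, minus; Cdc20 at chr4:118437344-118437593, minus) and 3 replication genes (Mcm3 at chr1:20820313-20820562, minus; Mcm6 at chr1:128359706-128359955, minus; Rrm2 at chr12:24708004-24708253, plus), with motif matches in capitals.
Cdk1: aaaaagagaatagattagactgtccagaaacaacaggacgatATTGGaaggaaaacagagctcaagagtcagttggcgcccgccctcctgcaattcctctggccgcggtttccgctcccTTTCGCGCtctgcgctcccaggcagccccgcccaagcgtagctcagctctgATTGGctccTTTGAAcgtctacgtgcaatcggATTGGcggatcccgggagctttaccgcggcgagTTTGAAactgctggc
Mki67: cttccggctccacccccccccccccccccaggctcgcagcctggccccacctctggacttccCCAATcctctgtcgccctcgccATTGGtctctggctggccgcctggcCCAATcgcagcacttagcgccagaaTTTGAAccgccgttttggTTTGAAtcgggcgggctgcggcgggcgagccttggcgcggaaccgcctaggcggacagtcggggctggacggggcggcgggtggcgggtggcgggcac
Cdc20: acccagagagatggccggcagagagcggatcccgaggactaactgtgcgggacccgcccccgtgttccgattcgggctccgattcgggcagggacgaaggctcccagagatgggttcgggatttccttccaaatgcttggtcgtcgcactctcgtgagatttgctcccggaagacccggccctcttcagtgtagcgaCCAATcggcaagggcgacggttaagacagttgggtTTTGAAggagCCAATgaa
Mcm3: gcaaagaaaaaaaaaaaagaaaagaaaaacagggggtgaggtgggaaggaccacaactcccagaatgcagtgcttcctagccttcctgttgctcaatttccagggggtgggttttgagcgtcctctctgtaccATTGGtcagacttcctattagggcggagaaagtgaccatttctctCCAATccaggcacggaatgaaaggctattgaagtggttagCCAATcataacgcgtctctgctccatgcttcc
Mcm6: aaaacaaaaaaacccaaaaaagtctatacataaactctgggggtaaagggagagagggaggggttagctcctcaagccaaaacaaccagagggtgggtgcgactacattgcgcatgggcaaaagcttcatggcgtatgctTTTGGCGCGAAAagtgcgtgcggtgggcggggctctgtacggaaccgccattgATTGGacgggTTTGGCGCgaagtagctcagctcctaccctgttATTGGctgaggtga
Rrm2: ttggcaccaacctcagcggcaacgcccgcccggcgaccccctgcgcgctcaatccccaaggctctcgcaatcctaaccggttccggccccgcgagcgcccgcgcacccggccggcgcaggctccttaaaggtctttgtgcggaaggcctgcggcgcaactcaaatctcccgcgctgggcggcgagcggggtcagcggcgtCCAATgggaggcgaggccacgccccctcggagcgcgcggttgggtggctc
A CCAAT box on the opposite strand reads ATTGG, and the longer capital runs are E2F sites. Mcm3 has an E2F match 38 to 45 bases after the start, outside the bases printed. The mitosis promoters printed all hold TTTGAA, while the windows of Birc5, Bub1, Ccnb1, Cenpe and Nusap1 held no match to these letters. Only these letters were searched for as a CHR. The run of 12 capitals in Mcm6 is a pair of E2F matches on opposite strands that overlap.

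CHR matches were mainly in mitosis promoters. They were found in 14 of 19 mitosis genes (73.68%), 1 of 9 replication genes (11.11%) and 0 of 5 S phase entry genes, against 17.89% of all 32851 windows. All 14 of those mitosis windows also held a CCAAT box, a pair found in 6.95% of all windows. The CCAAT box alone was in 17 of 19 mitosis genes, 8 of 9 replication genes and 1 of 5 S phase entry genes, against 37.41% of all windows. E2F matches were in 2 of 19 mitosis genes, 4 of 9 replication genes and 2 of 5 S phase entry genes, against 0.81%. These matches describe letters in a window and not binding. The genes were listed by textbook role, so the motif shares describe the lists and not the libraries.

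For FGF1 against DSS, the comparison closest to the study's question about supplying FGF1, 36 of 40 genes had a log2 fold change below 0 and none passed the test. The median was -0.37 for replication, -0.37 for S phase entry and -0.20 for mitosis, an order that was not tested and that turned without DSS 4, with medians of -0.44, -0.47 and -0.53 for the same roles. The median over all 40 was -0.24, beside 0.05 over all genes tested, of which 41.3% were below 0. By limma, with Benjamini-Hochberg adjustment over all genes, 0 of 40 were called at an adjusted p under 0.05, where 0.0557% of all genes were (0.0398% higher and 0.0159% lower). At an unadjusted p under 0.05 there were 4, all lower in FGF1 (Mcm3, Pcna, Rrm2 and Cdt1), beside 12.4% of all genes in either direction. Of the 12578 genes tested, 467 were lower in FGF1 at that level.

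The largest difference was in Rrm2, 7.92 ± 0.67 FPKM in FGF1 and 15.5 ± 7.13 in DSS (SD, n = 4 each), with a log2 fold change of -0.78 (95% interval -1.35 to -0.21; adjusted p = 0.253 by limma). Cdt1 averaged 3.46 ± 0.74 FPKM in FGF1 and 6.04 ± 0.60 in DSS, a log2 fold change of -0.67 (-1.13 to -0.21; adjusted p = 0.226 by limma). Pcna, with the lowest adjusted p of the 40 (0.155 by limma), averaged 61.0 ± 5.87 FPKM in FGF1 and 83.1 ± 5.34 in DSS, a log2 fold change of -0.44 (-0.70 to -0.19). Cdt1 and Pcna were the only members whose groups did not overlap, both lower in FGF1, as were 1.83% of all genes, while 4.45% were higher without overlap. The genes above 0 were Mcm5, Aurka, Plk1 and Tpx2. Mitosis genes depended on a single library here: without DSS 1 the mitosis median was 0.08, with 7 of 24 genes below 0, and without DSS 4 it was -0.53, with 24 of 24 below 0. Over all 40 genes the median was -0.02 without DSS 1, with 22 below 0. The replication median stayed between -0.48 and -0.25 when any 1 library was left out. Fibroblast and smooth muscle markers had medians of 1.42 and 1.25 in FGF1 against DSS, and colonocyte markers one of -0.51; their part in the cell cycle values was not tested. In a fit with a smooth muscle covariate 40 of 40 genes were below 0 with a median of -0.63, beside 0.01 over all genes, and with sample weights 29 were, with a median of -0.11.

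For DSS against control, which asks how the colon of DSS mice differs from that of control mice, the 40 genes had no common shift beyond the spread of the DSS libraries. Of the mitosis genes 23 of 24 lay below 0, with a median of -0.26. The replication genes were divided, 6 below and 4 above, with a median of -0.05 that turned to 0.08 with median-of-ratios scaling and to 0.11 with quantile normalization. Of the S phase entry genes 4 were below and 2 above, or 2 below and 4 above with median-of-ratios scaling. Over all 40 genes, 33 were below 0 and the median was -0.20, beside -0.07 over all genes tested, of which 59.7% were below 0. By limma 0 of 40 were called, where 12.3% of all genes were (2.23% higher and 10.1% lower), and 0 of 40 had an unadjusted p under 0.05, beside 27.7%.

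The largest differences were in Aurka, 8.10 ± 5.19 FPKM in DSS and 10.01 ± 2.69 in control, a log2 fold change of -0.42 (-1.15 to 0.31; adjusted p = 0.46 by limma), and in Bub1, 3.08 ± 1.85 and 4.09 ± 1.19 FPKM in the same groups, a log2 fold change of -0.41 (-1.02 to 0.20; adjusted p = 0.387 by limma). In no member were the groups apart, while 13.3% of all genes were lower in DSS without overlap and 3.67% higher. The direction turned on a single library. Without DSS 4 the median over the 40 genes was 0.04 and 16 were below 0, and without DSS 1 it was -0.44 and 35 were below 0. Fibroblast and smooth muscle markers had medians of -2.66 and -1.83 in DSS against control. With quantile normalization 20 of 40 were below 0, and in a fit with a smooth muscle covariate 1 of 40 was.

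For FGF1 against control, 39 of 40 genes had a log2 fold change below 0, Mcm5 being the exception at 0.15, and none passed the test. The medians were -0.33 for replication, -0.37 for S phase entry and -0.37 for mitosis, beside -0.04 over all genes tested, of which 57.5% were below 0. By limma 0 of 40 were called, where 0.0795% of all genes were (0.00795% higher and 0.0716% lower). At an unadjusted p under 0.05 there were 7 of 40, all lower in FGF1 (Mcm3, Mcm6, Pcna, Rrm1, Gins2, Aurkb and Bub1). Of all genes 13.9% were at that level in either direction, and 1247 of the 12578 tested were lower in FGF1. The control libraries enter this comparison and that of DSS with control, and the FGF1 libraries enter it and that of FGF1 with DSS, so the 3 are not independent.

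Bub1 averaged 2.15 ± 0.27 FPKM in FGF1 and 4.09 ± 1.19 in control, a log2 fold change of -0.67 (-1.28 to -0.06; adjusted p = 0.317 by limma). Cdk1 averaged 4.13 ± 0.80 FPKM in FGF1 and 7.29 ± 2.77 in control, a log2 fold change of -0.65 (-1.30 to 0.0013; adjusted p = 0.36 by limma). Mcm3, with the lowest adjusted p (0.188 by limma), averaged 5.45 ± 1.13 FPKM in FGF1 and 9.05 ± 1.86 in control, a log2 fold change of -0.64 (-1.07 to -0.20). All 4 FGF1 libraries lay below all 4 control libraries in 13 of 40 genes, beside 6.61% of all genes. They were the replication genes Mcm3, Tyms and Rrm2, the S phase entry gene Gins2, and 9 mitosis genes: Mki67, Cdk1, Aurkb (the Aurora kinase of the passenger complex), Bub1, Bub1b, Kif11 (the motor that pushes spindle poles apart), Cenpf, Nusap1 and the condensin subunit Smc2. For Tyms the nearest pair, FGF1 1 and control 4, was at 7.41 and 7.422 FPKM. On coding transcripts alone Tyms, Gins2 and Cdk1 overlapped, while the other genes named here stayed apart. Coding Tyms had 5.158 FPKM in FGF1 1 and 4.1 in control 4. Coding Gins2 had 6.281 FPKM in FGF1 4 and 4.946 in control 4, and coding Cdk1 4.813 in FGF1 3 and 4.528 in control 1. None of the 40 lay above control without overlap, as 3.66% of all genes did. Leaving out any 1 library left between 37 and 40 genes below 0, with a median between -0.52 and -0.25, the nearest to 0 without control 3. Smooth muscle and fibroblast markers were lower in FGF1 than in control as well, with medians of -0.75 and -0.88, while the epithelial markers had a median of 0.25. In a fit with a smooth muscle covariate 37 of 40 genes were below 0 with a median of -0.21, and relative to the epithelial markers 40 of 40 were, with a median of -0.62. That setting lowered all genes alike, to a median of -0.29 over all genes tested. It called Mcm3, Pcna and Gins2 lower (adjusted p = 0.038, 0.0459 and 0.0431 by limma), 3 of the 40 genes, where 5.77% of all genes were called (5.68% lower), so the count is close to the background.

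**Figure D4:**
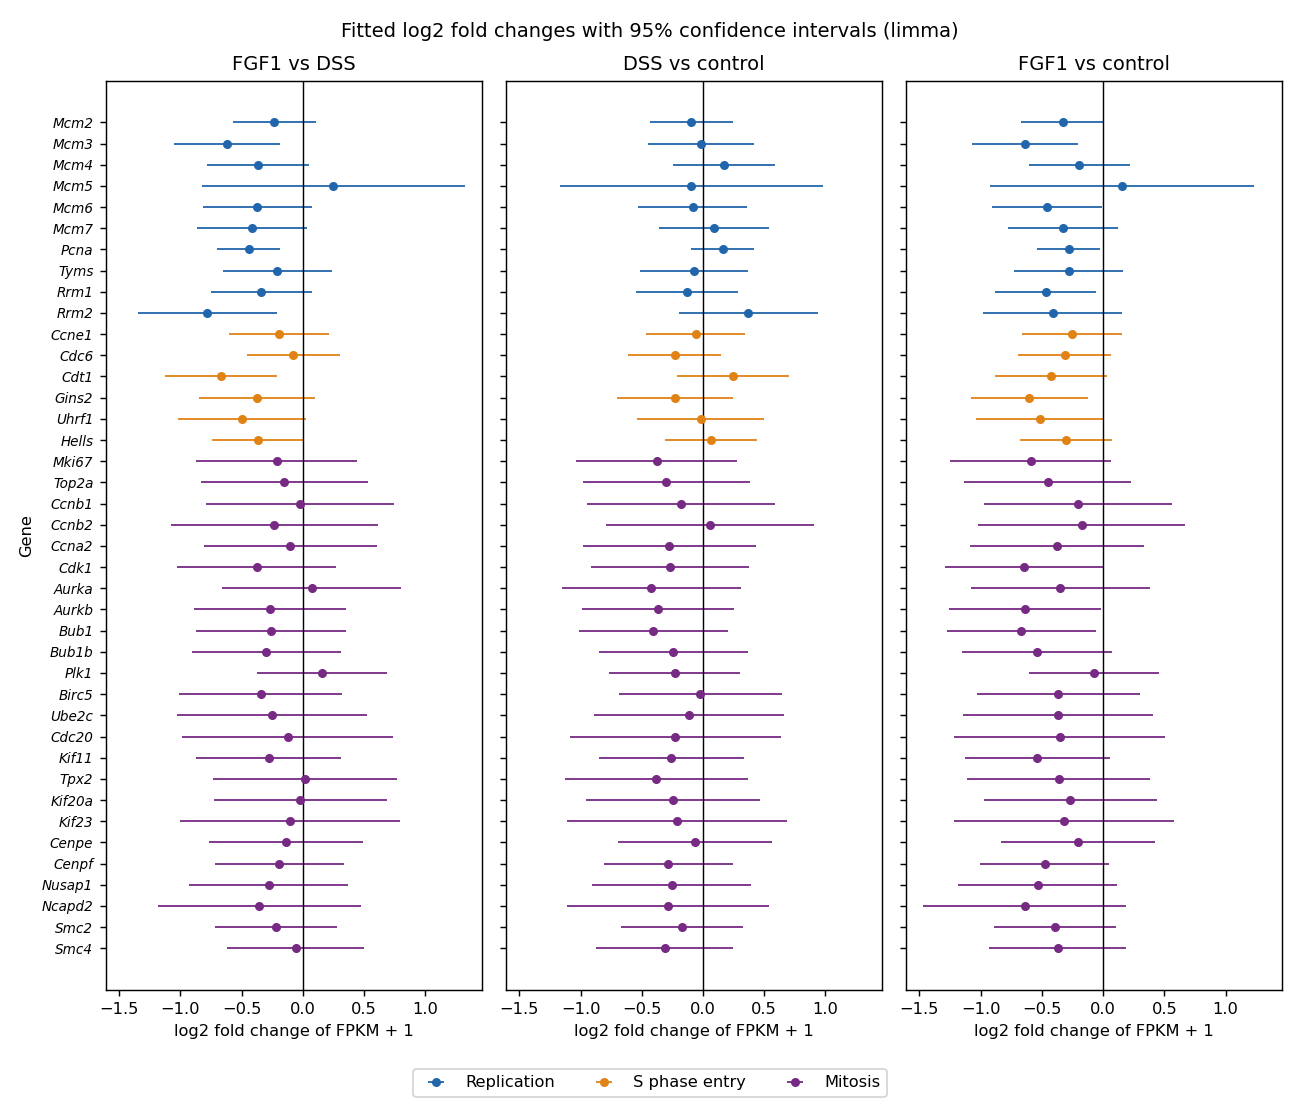
Fitted log2 fold changes of FPKM + 1 with 95% confidence intervals from limma for each gene, coloured by role, in FGF1 against DSS, DSS against control and FGF1 against control. In FGF1 against control 39 of 40 points lie left of 0, and in DSS against control every interval includes 0.

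Further cell cycle genes, from lists of textbook members drawn up with earlier results of these data known, gave 1 call. Of 40 other replication genes 39 were tested, of 44 other mitosis genes 42 and of 42 genes of cell cycle control 40. In FGF1 against DSS 38 of 39 replication, 36 of 42 mitosis and 28 of 40 control genes were below 0, with medians of -0.23, -0.22 and -0.08. In DSS against control the counts were 21 of 39, 36 of 42 and 26 of 40, with medians of -0.04, -0.22 and -0.12, of which the replication median turned to 0.08 with median-of-ratios scaling and the control median to 0.07 with quantile normalization. In FGF1 against control they were 37 of 39, 42 of 42 and 32 of 40, with medians of -0.32, -0.39 and -0.09.

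In DSS against control 12.3% of all genes were called, so 1 call over these lists is below the background. It was Cdkn1a, the cyclin-dependent kinase inhibitor p21, which rose in DSS against control. It had 93.8, 104, 100.5 and 133 FPKM in FGF1, 116, 139, 89.97 and 105 in DSS, and 84.8, 71.8, 77.6 and 66.3 in control. Every FGF1 and every DSS library lay above every control library. The log2 fold change was 0.56 in DSS against control (0.24 to 0.89; adjusted p = 0.0294 by limma) and 0.51 in FGF1 against control (0.19 to 0.83; adjusted p = 0.168 by limma), and -0.06 in FGF1 against DSS (-0.38 to 0.26; adjusted p = 0.913 by limma). Of 32 alternatives 12 lost the call: a fit with a smooth muscle covariate (adjusted p = 0.306), with quantile normalization (0.0612) or with the replicate block (0.063), without DSS 3 and DSS 4 (0.0515), DSS 1 and DSS 4 (0.1), control 3 and DSS 1 (0.0808) or control 3 and FGF1 3 (0.0694), and without control 2 (0.0631), control 3 (0.0619), control 4 (0.09), DSS 2 (0.0557) or DSS 4 (0.0559), all by limma. The log2 fold change stayed between 0.41 and 0.76 under every alternative run.

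A gene value here is a sum over transcripts, so the make-up of that sum matters for a few members. In 29 of 40 genes coding transcripts made up a median of at least 90% of the value. Cdt1 and Top2a were the genes with a median under 60%. For Cdt1 the coding transcript had 1.48, 0.317, 0.479 and 0.216 FPKM in FGF1, 1.46, 1.96, 5.65 and 5.88 in DSS, and 0.772, 0.991, 1.16 and 6.95 in control. It made up 5.88% to 45.4% of the value in FGF1, 25.5% to 95.8% in DSS and 13.9% to 90.7% in control, the rest being mostly a retained-intron transcript. On coding transcripts alone, an alternative added after seeing the data, FGF1 against DSS gave Cdt1 a log2 fold change of -1.46 (adjusted p = 0.275 by limma), against -0.67 for the whole gene. Unlike the whole gene, the coding transcript overlapped between FGF1 and DSS, with 1.478 FPKM in FGF1 1 and 1.459 in DSS 1. Gins2 had a lowest coding share of 39.7%, in FGF1 1, and Smc4, a condensin subunit, one of 17.0%.

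**Figure D5:**
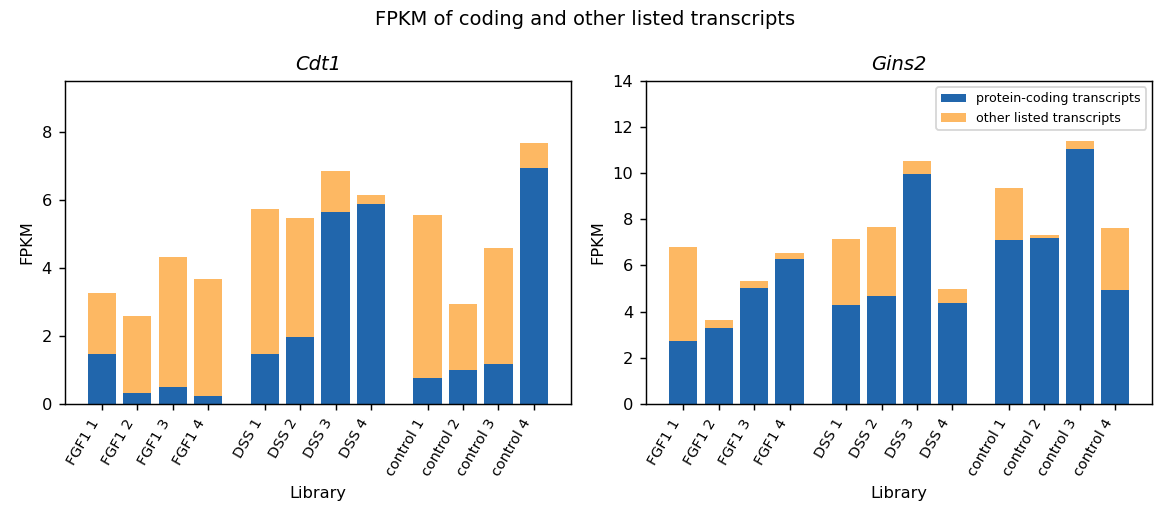
Stacked bars give the FPKM of the coding transcript (blue) and of the other listed transcripts (orange) of Cdt1 and Gins2 in each library, FGF1 left, DSS in the middle and control right; the 2 panels have their own scales. In Cdt1 the coding part is at least 5.65 FPKM in DSS 3, DSS 4 and control 4 and at most 1.96 FPKM in the other 9 libraries.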

How the data were processed

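Poly(A) RNA of 12 mouse colon samples was sequenced, per the labels' protocols. The deposited table gives the authors' FPKM per transcript on 187383 rows of transcript structure events, 74659 transcripts in all. The submitters' processing notes name cutadapt 1.9, HISAT2 2.0.4, StringTie 1.3.4d, edgeR and the GRCm38 build. Their settings are not stated. FPKM removes depth and length, so counts, and intervals that need them, could not be had.

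A gene's value is the sum of FPKM over its distinct transcripts, with names and positions from GENCODE vM21 (GRCm38). Values were taken as log2(FPKM + 1) and fitted with limma 3.58.1 in R 4.3.3 (1 model for all 12 libraries, moderated with a mean-variance trend, two-sided) over the 12578 genes with at least 1 FPKM in at least 4 libraries. P-values were adjusted by Benjamini-Hochberg over all of them, with calls at 0.05. Fold changes on this scale understate those of low genes. Scores and list medians carry no test. The fit was checked on simulated data with known changes. A further 32 settings were tried, 3 of them added after seeing the data.

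The members, gene lists and tests were chosen with earlier results of these data known. Values in every library are given for the 3 highest members of each role and the 2 with the largest change in each comparison; Mki67, Mcm3, Mcm5 and Kif23 were singled out after their values were seen. Other deposited files, which hold event tallies or placeholder values, were not used.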

Additional observations from a re-analysis of the deposited data

Results flagged for a closer look

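In 3 groups of 4 libraries, 1 library stood far from the other 3 by Dixon's criterion at the 95% level. Tyms, the thymidylate synthase gene, had 13.1 FPKM in control 3 and 7.42, 7.6 and 7.72 in the other control libraries. Ccne1 had 2.02 FPKM in FGF1 4 and 3.46, 3.47 and 3.62 in the other FGF1 libraries. Cdc6 had 1.41 FPKM in control 2 and 1.93, 2.02 and 2.04 in the other control libraries. In all, 132 groups were examined, and chance flags about 1 in 20, or 6.6.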

How the results depend on the processing

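No member was called in FGF1 against DSS under any of the 32 alternatives. In DSS against control 1 was called without DSS 3 and DSS 4 (Rrm2, higher in DSS, log2 fold change 0.94, adjusted p = 0.0407 by limma), and in FGF1 against control 3 relative to the epithelial markers (Pcna -0.54, Gins2 -0.86 and Mcm3 -0.89, adjusted p = 0.0459, 0.0431 and 0.038 by limma); the cause was not tested.

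The direction of FGF1 against control held in most settings: of 40 genes between 36 and 40 were below 0 (30 of 33 with start events), with medians between -0.62 and -0.21. Median-of-ratios scaling moved the median of all genes in DSS against control from -0.07 to 0.05.

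Counts over all genes depended on the settings. In FGF1 against DSS, 7 genes were called, and 1 with start events, 4 with transcripts in all 12 libraries, 14 with 1 FPKM in all libraries, 15 with median-of-ratios scaling, 3 with quantile normalization, 4 relative to epithelium, 3 with only the 2 groups, 56 with sample weights, 0 with the smooth muscle covariate, 2 with the replicate block, 0 without DSS 3 and DSS 4, 2 without control 3 and FGF1 3, 3 without DSS 1 and DSS 4, 53 without control 3 and DSS 1, and 0 to 43 leaving out 1 library (fewest without FGF1 2, most without DSS 1). In DSS against control, 1549 were called, and, in the settings that moved the count, 727 with start events, 844 with the top transcript, 922 with transcripts in all 12 libraries, 715 with 1 FPKM in all libraries, 29 with the covariate, 1028 with the block, 185 without DSS 3 and DSS 4, 915 without control 3 and FGF1 3, 904 without DSS 1 and DSS 4, and 697 to 1982 leaving out 1 library. In FGF1 against control, 10 were called, and 1 with start events, 1 with transcripts in all 12 libraries, 0 with a pseudocount of 0.1, 1 with 0.5, 50 with no filter, 0 with 1 FPKM in all libraries, 24 with quantile normalization, 726 relative to epithelium, 38 with only the 2 groups, 28 with no trend, 708 with weights, 2 with the covariate, 1 with the block, 38 without DSS 3 and DSS 4, 20 without control 3 and FGF1 3, 16 without control 3 and DSS 1, and 0 to 83 leaving out 1 library.

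Leaving out 1 library moved the mitosis score difference from -0.48 to 0.12 in FGF1 against DSS, from -0.54 to 0.06 in DSS against control and from -0.53 to -0.26 in FGF1 against control. For replication the ranges were -0.48 to -0.21, -0.12 to 0.16 and -0.40 to -0.23, and for S phase entry -0.44 to -0.30, -0.15 to 0.02 and -0.51 to -0.34, in the same order of comparisons. Relative to epithelium the FGF1 against control differences were -0.58 for replication, -0.66 for S phase entry and -0.67 for mitosis; the S phase entry difference was -0.15 with start events, and 0.19 in DSS against control with quantile normalization.

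Single genes changed sign in DSS against control for Aurka (0.27 with transcripts in all 12 libraries, 0.21 with the covariate, 0.084 without DSS 3 and DSS 4) and Bub1 (0.20 with the covariate, 0.036 without DSS 3 and DSS 4). In FGF1 against control they did for Uhrf1 (0.55, transcripts in all 12 libraries), Gins2 (0.63, start events) and Plk1 (0.078 with the covariate, 0.00074 without control 3 and FGF1 3, 0.029 without control 3, with or without DSS 1). The labels do not say that the replicate numbers pair the samples. Libraries of the same number correlated between -0.22 and 0.40 in their deviations, the highest being FGF1 3 with control 3. Libraries of different numbers correlated between -0.36 and 0.26. With 4 libraries in a group these values cannot settle whether the samples were paired. With the replicate block no member was called, and Cdkn1a had an adjusted p of 0.063 (limma). The unknown depth limits the low members most.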
